A study of Homo sapiens with 8 samples.

Results

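The genes of cholesterol and fatty acid synthesis were followed through a pulse and chase of RNA label in the monocytic cell line THP-1, derived from human acute leukaemia. The set was a fixed list of 30 gene names: 6 genes of the mevalonate and isoprenoid steps, 10 of the way from squalene to cholesterol, 6 of sterol sensing and transport, and 8 of fatty acid synthesis. Each gene was represented by its most covered 3′ UTR segment. That segment held all reads of genes with 1 distinct segment, such as HMGCS1, FDPS and SCD. It held a smaller part of the reads summed over distinct segments in others, such as FDFT1 (20.3%), INSIG1 (40.3%) and STARD4 (42.6%). Of the 30, 29 were measured among 15380 genes with a read, and 27 had enough reads for every fit. ACACA (acetyl-CoA carboxylase) was not analysed here because none of its transcript identifiers was matched. ELOVL6, an elongase of saturated fatty acids, had 8 reads over the whole chase, and FADS2, a desaturase of polyunsaturated fatty acids, had 115, so neither was tested.

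In SLAM-seq, 4-thiouridine (4sU) is built into new RNA, alkylated, and read as a T-to-C change, so that labelled reads mark RNA made while 4sU was present. Cells of 7 libraries were given 30 µM 4sU for 12 h, washed and moved into 3 mM uridine, and were collected after 0, 20 and 40 min and after 1, 2, 8 and 12 h. An interval of 3 h was recorded for medium exchange, and its part in the levels was not tested. A further library came from cells that never received 4sU. All were THP-1 grown in RPMI with heat-inactivated serum, with 1 library per condition, and the labels do not say whether the times came from separate cultures. Tests therefore set the slope of a straight line over hours, on the log scale, against the scatter of the 7 chase libraries around it. No pair of conditions could be tested. Values in time order run over these 7 libraries, from 0, 20 and 40 min through 1, 2 and 8 h to 12 h.

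Cholesterol and fatty acid synthesis are controlled together by the SREBP transcription factors, which SREBF1 and SREBF2 encode. When membrane sterol is low, the escort protein SCAP carries SREBP from the endoplasmic reticulum to the Golgi apparatus, where proteases release its active part. When sterol is high, the INSIG proteins hold SCAP back. SREBP binds sterol regulatory elements and commonly acts beside the CCAAT-binding factor NF-Y and beside Sp1.

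Promoters of 27 of the 30 genes were in the RefSeq table (GRCh38.p14), with windows of 250 bases before to 50 after the start. The letters CCAAT occurred on either strand in 18 of 27 windows (66.7%), against 35.7% of all 27305 promoters and 37.6% of the promoters of 7595 tested genes. On the given strand alone CCAAT was in 10 windows (37.0%), against 20.8% of all promoters. The Sp1 box GGGCGG was in 25 of 27 windows (92.6%) on either strand, against 44.6% of all promoters and 71.5% of those of tested genes, and in 16 windows (59.3%) on the given strand, against 29.9% of all promoters. The E-box CACGTG was in 3 windows (11.1%, against 7.43% of all promoters and 10.7% of those of tested genes). The sterol element TCACNCCAC was in 1 window (3.70%, against 1.15% and 1.18%), that of SREBF2, where TCACCCCAC began 133 bases before the start. A match describes letters only.

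The 250 bases before the start are given for SREBF2, which holds that sterol element, and for MSMO1, MVK and NSDHL, the methylsterol oxidase, mevalonate kinase and sterol dehydrogenase genes, whose windows held the most CCAAT matches (4, 5 and 5). Capitals mark CCAAT or its reverse complement ATTGG and, in SREBF2, also TCACCCCAC. A pair of the NSDHL matches overlap each other.
SREBF2, chr22:41832855-41833104, plus strand: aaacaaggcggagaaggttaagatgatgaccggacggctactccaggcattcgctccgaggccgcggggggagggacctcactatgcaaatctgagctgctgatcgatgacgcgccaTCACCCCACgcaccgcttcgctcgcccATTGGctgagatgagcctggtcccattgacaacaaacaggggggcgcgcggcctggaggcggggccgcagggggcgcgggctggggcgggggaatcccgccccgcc
MSMO1, chr4:165327419-165327668, plus strand: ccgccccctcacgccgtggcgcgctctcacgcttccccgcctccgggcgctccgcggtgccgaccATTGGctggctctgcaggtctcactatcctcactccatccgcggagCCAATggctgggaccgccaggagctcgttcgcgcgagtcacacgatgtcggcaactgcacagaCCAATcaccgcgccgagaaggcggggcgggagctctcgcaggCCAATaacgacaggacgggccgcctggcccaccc
MVK, chr12:109573544-109573793, plus strand: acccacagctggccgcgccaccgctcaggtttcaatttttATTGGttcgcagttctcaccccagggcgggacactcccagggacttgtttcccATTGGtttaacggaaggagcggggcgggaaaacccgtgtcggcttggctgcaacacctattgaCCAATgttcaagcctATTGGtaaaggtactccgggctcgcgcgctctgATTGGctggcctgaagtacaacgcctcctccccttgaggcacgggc
NSDHL, chrX:152830813-152831062, plus strand: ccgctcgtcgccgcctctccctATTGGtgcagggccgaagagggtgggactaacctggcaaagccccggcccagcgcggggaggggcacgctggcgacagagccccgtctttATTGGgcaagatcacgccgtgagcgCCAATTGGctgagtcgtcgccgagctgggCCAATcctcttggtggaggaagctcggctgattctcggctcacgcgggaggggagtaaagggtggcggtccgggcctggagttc

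Gene counts summed to between 8301034 and 11224017 reads in the chase libraries, and to 2916044 reads in the library without 4sU. Over all genes 30.6, 30.1, 30.7, 30.2, 27.1, 10.8 and 5.53% of reads were labelled in time order, against 0.0121% without 4sU. The library without 4sU stood apart in more than the label: the 8 monocytic markers (LYZ, CD33, SPI1, ITGB2, FCER1G, TYROBP, CD68 and CSF1R) summed to 3190 CPM (reads of a gene scaled to the gene total of its library) at 0 h, and to 3061 to 3877 CPM over the chase, against 947 CPM without 4sU. Of these 8 markers, 7 were more than 2-fold higher at 0 h. Of 8 markers of lymphoid, erythroid, epithelial, stromal and endothelial cells, 5 were measured and summed to 3.56 CPM at 0 h and 7.20 CPM without 4sU. CD3E and HBB had no reads, and PECAM1 was not matched to a segment.

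At the end of the pulse the labelled share of the 27 genes had a median of 40.7%, from 11% for MVD to 68.5% for MSMO1, against a median of 44.5% over all genes tested. None of the 27 except FASN, with 1 of 898 reads, had a labelled read without 4sU. For HMGCS1, 0 of 213 reads without 4sU allows a share of up to 1.41%, and for MSMO1 0 of 37 reads allows up to 8.11%. The label then declined in 27 of 27 genes (edgeR quasi-likelihood test, Benjamini-Hochberg adjusted p under 0.05). Of all 9402 genes tested 95.3% declined and 0.0213% rose, so the count in the set is close to that of genes at large. In the median gene of the set 19.1% of the labelled share of the first 40 min was left at 8 h, against 14.1% over all genes. Over 0 to 2 h alone the decline was called in 3 of 26 genes, SQLE, MSMO1 and SREBF1, and in 32.3% of 9268 genes. With log2(hours + 1) in place of hours, PMVK, FDPS and HSD17B7 were not called (adjusted p = 0.0515, 0.0645 and 0.0506 by edgeR).

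Half-lives were fitted to the labelled share of each gene's own reads, so that new unlabelled RNA counts as loss. The value therefore also depends on how much new RNA a gene made during the chase, and that part was not tested. The half-lives of all 27 were resolved, as were those of 93.9% of the genes tested. Their median was 3.16 h, with the middle of the set between 2.65 and 4.93 h, against 2.72 h (2.16 to 3.99 h) over 8831 genes. By role the medians were 3.42 h for the 6 mevalonate genes, 2.95 h for the 10 squalene-to-cholesterol genes, 2.73 h for the 6 genes of sensing and transport, and 5.02 h for the 5 fatty acid genes. The share was level through the first hour and the fit lets it fall from 0 h on. In some genes it had not fallen by 2 h, as in PMVK (17.2% at 0 h, 18.7% at 2 h) and FDFT1 (32.3% and 37.3%). Scatter about the curve, as a multiple of counting error (Pearson dispersion), had a median of 3.74 over 9402 genes. It was 11.6 for HMGCS1, 12.2 for FDFT1 and 0.332 for LSS, so intervals of half-lives rest on a curve that fits some genes poorly. From 1 h on alone the median of the set was 2.57 h, against 2.36 h over all genes. Over 0 to 2 h alone 2 of 27 genes were resolved, against 39.7% of all genes. The median log2 change of the share over 12 h was -4.26 in the set, against -4.66 over all genes. For labelled reads relative to the whole library it was -4.69 in the set, against -4.42. In the fatty acid genes these medians were -2.54 for the share and -3.05 for labelled reads.

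**Figure D1:**
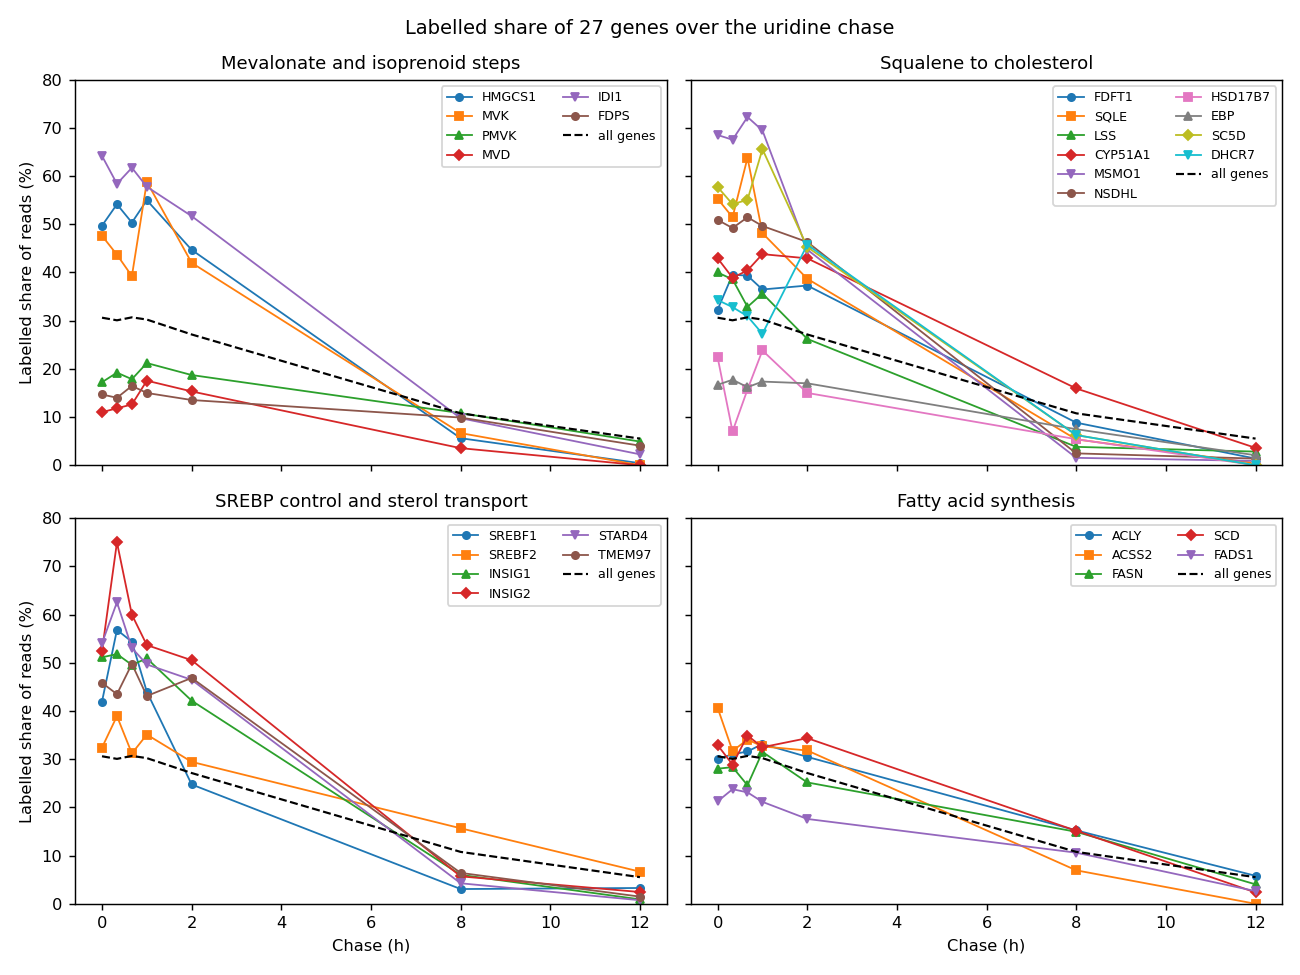
Labelled share of reads (%, y axis) against hours of chase (x axis), in a panel per role, with 1 point per library and gene and the share over all genes as a dashed line. MSMO1 has 68.5% at 0 h and 1.53% at 8 h, whereas FDPS has 14.7% at 0 h and 9.89% at 8 h.

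At the head of the mevalonate pathway, HMGCS1 joins acetyl units into HMG-CoA. HMGCS1 had labelled shares of 49.7, 54.2, 50.4, 55.0, 44.7, 5.61 and 0.425% in time order. Its half-life was 2.54 ± 0.440 h (SE; 95% interval 1.81 to 3.56 h). The share held through the first hour and was low only in the last 2 libraries. IDI1, which interconverts the isoprene units, had 64.2, 58.4, 61.7, 57.8, 51.7, 9.76 and 2.26% in time order, with a half-life of 3.10 ± 0.410 h. MVK, which adds the first phosphate to mevalonate, had a half-life of 2.86 ± 0.720 h.

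PMVK and FDPS had the longest half-lives of the 27. PMVK, which adds the second phosphate, had shares of 17.2, 19.2, 17.9, 21.2, 18.7, 10.8 and 4.91% in time order, and a half-life of 7.38 ± 1.38 h. FDPS, which builds farnesyl diphosphate, had 14.7, 14.0, 16.5, 15.0, 13.5, 9.89 and 4.06% in time order, and a half-life of 8.57 ± 1.72 h. At 8 h both kept more than the median gene, 59.7% of the early share for PMVK and 65.5% for FDPS. The 95% interval of FDPS (5.78 to 12.7 h) lay above that of HMGCS1, and the intervals of FDPS and PMVK (5.11 to 10.7 h) overlapped.

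MVD, the decarboxylase between PMVK and IDI1, had the lowest share at 0 h. It had 11, 11.8, 12.6, 17.5, 15.3 and 3.54% in time order up to 8 h, and 0 of 78 reads at 12 h, which allows a share of up to 3.85%. With 78 to 119 reads per library its half-life of 3.74 ± 1.31 h had a wide interval (1.88 to 7.45 h). That interval overlapped those of all the other mevalonate genes.

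On the way from squalene to cholesterol, MSMO1 had the shortest half-life of the set, 2.13 ± 0.432 h. MSMO1, which oxidises a methyl group of the sterol ring, had shares of 68.5, 67.5, 72.3, 69.5, 44.7, 1.53 and 0.905% in time order. SQLE, the squalene epoxidase and a rate-limiting step, had 55.3, 51.5, 63.8, 48.2, 38.7, 5.36 and 0.435% in time order, with a half-life of 2.36 ± 0.383 h. Both were already lower at 2 h than in every earlier library. NSDHL, SC5D (a sterol desaturase) and LSS (lanosterol synthase) followed with 2.56 ± 0.562, 2.58 ± 0.498 and 2.74 ± 0.422 h.

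The slower genes of this branch were EBP, a sterol isomerase, with 5.13 ± 0.820 h, and CYP51A1, the lanosterol demethylase, with 4.62 ± 0.887 h. The 95% interval of EBP (3.75 to 7.02 h) did not overlap that of MSMO1 (1.43 to 3.17 h). FDFT1, the squalene synthase, had 3.38 ± 0.635 h and DHCR7, the last reductase, 3.16 ± 1.1 h. HSD17B7, a sterol ketone reductase, had the least certain value, 3.53 ± 1.68 h. HSD17B7 had 37 to 70 reads per library, and shares of 22.4, 7.02, 15.7, 23.8, 15 and 5.41% in time order up to 8 h, with 0 of 39 reads at 12 h (up to 7.69%). The log2 change of its label was -3.37 ± 1.11 (adjusted p = 0.00593 by edgeR) and, without the 12 h library, -2.30 (adjusted p = 0.143).

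**Figure D2:**
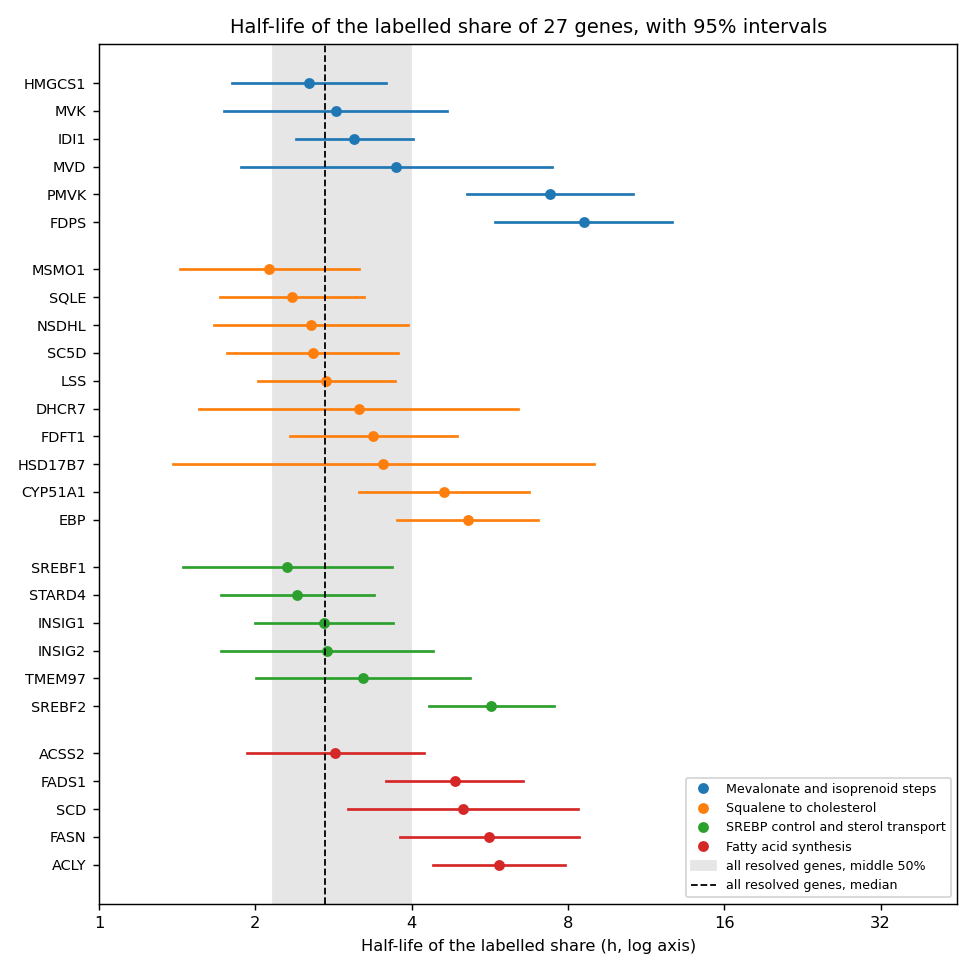
Half-life of the labelled share (h, log axis) with 95% intervals, for 27 genes coloured by role, with the median (2.72 h, dashed) and middle 50% (grey) of all resolved genes. MSMO1 at 2.13 h and FDPS at 8.57 h are the ends of the range.

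Among the regulators, the half-lives of SREBF1 and SREBF2 lay apart. SREBF1 had shares of 42.0, 56.8, 54.4, 44.0, 24.8, 3.06 and 3.28% in time order, with a half-life of 2.31 ± 0.548 h (1.45 to 3.67 h). SREBF2 had 32.4, 38.9, 31.2, 35.1, 29.5, 15.7 and 6.67% in time order, with a half-life of 5.70 ± 0.801 h (4.33 to 7.51 h). The intervals did not overlap, and the difference between the genes was not itself tested.

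INSIG1 and INSIG2, which retain SCAP in the endoplasmic reticulum, had nearly equal half-lives of 2.71 ± 0.424 h and 2.75 ± 0.662 h. INSIG1 had shares of 51.2, 51.8, 49.6, 50.9, 42.2, 6.0 and 0.917% in time order. INSIG2 had 52.5, 75, 60, 53.7, 50.5, 5.69 and 2.44% in time order. INSIG2 lay above INSIG1 in every library except that of 8 h, and its highest value, at 20 min, came from 76 reads.

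STARD4 carries cholesterol between membranes. Its shares were 54.1, 62.6, 53.1, 49.7, 46.5, 4.26 and 0.741% in time order, with a half-life of 2.41 ± 0.417 h. TMEM97, a sterol-responsive membrane protein, had 45.9, 43.5, 49.8, 43.1, 46.9, 6.41 and 1.48% in time order, and a half-life of 3.22 ± 0.778 h. In both, as in INSIG1, the drop fell between the 2 and 8 h libraries.

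In fatty acid synthesis, ACLY and ACSS2 supply acetyl-CoA from citrate and from acetate, FASN builds the saturated chain, and SCD and FADS1 add double bonds. ACLY had shares of 30.1, 31.0, 31.6, 33.2, 30.5, 15.2 and 5.81% in time order, with a half-life of 5.89 ± 0.881 h. FASN had 28.0, 28.4, 24.6, 31.5, 25.2, 14.9 and 4.03% in time order, with 5.64 ± 1.1 h. ACLY lay above FASN in each library, and the intervals of their half-lives overlapped.

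SCD had labelled shares of 32.9, 28.9, 34.9, 32.5, 34.4, 15.2 and 2.35% in time order, with a half-life of 5.02 ± 1.31 h. FADS1 had a half-life of 4.84 ± 0.748 h and ACSS2, from 41 to 72 reads per library, 2.85 ± 0.569 h. At 8 h ACLY, FASN, SCD and FADS1 kept 46.7% to 55.3% of the early share and ACSS2 kept 19.2%.

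The transcript ends were set beside these shares, since only a T can be read as a conversion. In the last 300 transcript bases (GENCODE 29) T made up 18.0% to 43.0% in the set, with a median of 30.7%, against 31.3% over the genes tested. Across the 27 genes T content went with the labelled share at 0 h (Spearman's rho 0.74, and 0.59 across 9396 genes) and against the half-life (rho -0.49). These are descriptions across genes, which share the libraries and are not independent replicates. The 2 genes with 18.0% T, EBP and MVD, had shares of 16.7% and 11% at 0 h, while MSMO1 with 43.0% T had 68.5%.

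The AU-rich pentamer ATTTA was in the ends of 13 of 29 genes (44.8%, against 46.5% of genes tested, given strand). Half-lives had a median of 2.66 h over the 12 fitted genes with it and 3.53 h over the 15 without it, against 2.61 and 2.87 h over all genes. The Pumilio element TGTANATA was in 3 of 29 genes (10.3%, as in 10.3% of genes tested): SQLE, NSDHL and SREBF1, with half-lives of 2.36, 2.56 and 2.31 h. The median was 3.30 h over the 24 fitted genes without it. Over all genes the medians were 2.37 h with the element and 2.78 h without it. The sites of NSDHL and SREBF1 are shown as examples of the element. They begin 296 and 133 bases from the transcript end, and capitals mark the element.
NSDHL, chromosome X: tcctTGTACATAatcaaggaagctgtagga
SREBF1, chromosome 17: ggagagagacgTGTACATAgtgtaggtcag

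Total levels, that is all reads of a gene scaled between libraries by TMM, were fitted against hours and are given as log2 change over 12 h. In such bulk samples fewer cells with a transcript and less of it per cell cannot be told apart. FDFT1 and HMGCS1 rose (2 of 27, against 27.6% of 10643 genes tested). SCD, HSD17B7, TMEM97, IDI1, MVD, FDPS, NSDHL, INSIG1 and EBP fell (9 of 27, against 23.7%). NSDHL (-0.42 ± 0.14) lost its call without the 0 h library (-0.40) or the 8 h library (-0.34). The other 16 passed in neither direction, and the median change was -0.22, against 0.03 over all genes. With all segments summed STARD4, among these 16, was called, and FDFT1 kept its call. Scaled by library totals alone, which moves the median of all genes to 0.18 and the upward part of all calls to 68.0% from 53.7%, SQLE and MSMO1 also passed upward and 5 genes (MVD, IDI1, FDPS, TMEM97 and SCD) passed downward, against 35.9% up and 16.9% down over all genes.

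HMGCS1 had 41.2, 38.0, 45.6, 47.8, 49.8, 65.2 and 53.7 CPM in time order, a change of 0.50 ± 0.16 (SE, adjusted p = 0.0196 by edgeR). The 8 h library was the highest, and without it the change was 0.33 (adjusted p = 0.0708) and no longer called. FDFT1 had 63.9, 63.2, 64.7, 58.0, 66.3, 72.5 and 91.2 CPM in time order (0.50 ± 0.10, adjusted p = 0.00149 by edgeR). Here the 12 h library was the highest, and without it the change was 0.32 (adjusted p = 0.0863) and no longer called.

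Among the isoprenoid genes that fell, IDI1 had 60.5, 57.0, 56.1, 50.4, 49.8, 44.3 and 35.4 CPM in time order (-0.65 ± 0.11, adjusted p = 0.000648 by edgeR). FDPS had 115, 115, 119, 108, 102, 89.9 and 75.9 CPM in time order (-0.59 ± 0.09, adjusted p = 0.00027). In both genes each library from 1 h on was lower than the one before it. MVD had 12.9, 12.9, 12.8, 13, 12.5, 9.39 and 8.90 CPM in time order, level up to 2 h and lower in the last libraries, a change of -0.61 ± 0.17 (adjusted p = 0.0108 by edgeR).

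SCD had the largest change of the set: 29.5, 32.4, 34.0, 31.5, 28.8, 13.7 and 19.4 CPM in time order (-1.02 ± 0.23, adjusted p = 0.00361 by edgeR). TMEM97 had 67.2, 62.0, 71.3, 67.0, 70.0, 45.4 and 38.4 CPM in time order (-0.87 ± 0.12, adjusted p = 0.000134). In each gene both late libraries lay below all the libraries from 0 to 2 h. HSD17B7 had 7.94, 6.66, 7.55, 4.78, 6.74, 3.08 and 4.45 CPM in time order (-0.96 ± 0.34, adjusted p = 0.0328), and lost its call without the 0 h, 20 min, 40 min or 8 h library (changes of -0.97 to -0.66). Pseudogene copies of HSD17B7 and FDPS exist elsewhere in the genome. The sources used here do not say to which copy a shared read was counted.

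Of the 4 SREBF and INSIG genes, INSIG1 passed the test for total level. INSIG1 had 71.8, 70.6, 77.9, 74.2, 65.8, 48.5 and 62.2 CPM in time order (-0.41 ± 0.15, adjusted p = 0.0374 by edgeR). Its call was lost without the 0 h, 20 min, 40 min, 1 h or 8 h library (changes of -0.41 to -0.24), and with all segments summed (-0.33). Changes of SREBF2 (-0.37 ± 0.16, adjusted p = 0.0688), INSIG2 (-0.68 ± 0.29, adjusted p = 0.0702) and SREBF1 (-0.39 ± 0.30, adjusted p = 0.29) did not pass in edgeR. SREBF2 was called without the 12 h library (-0.70, adjusted p = 0.0335 by edgeR). INSIG2 was called without the 8 h library (-1.10, adjusted p = 0.00608 by edgeR) and by DESeq2 (-0.73, adjusted p = 0.0488), and without the 12 h library its change was 0.11.

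**Figure D3:**
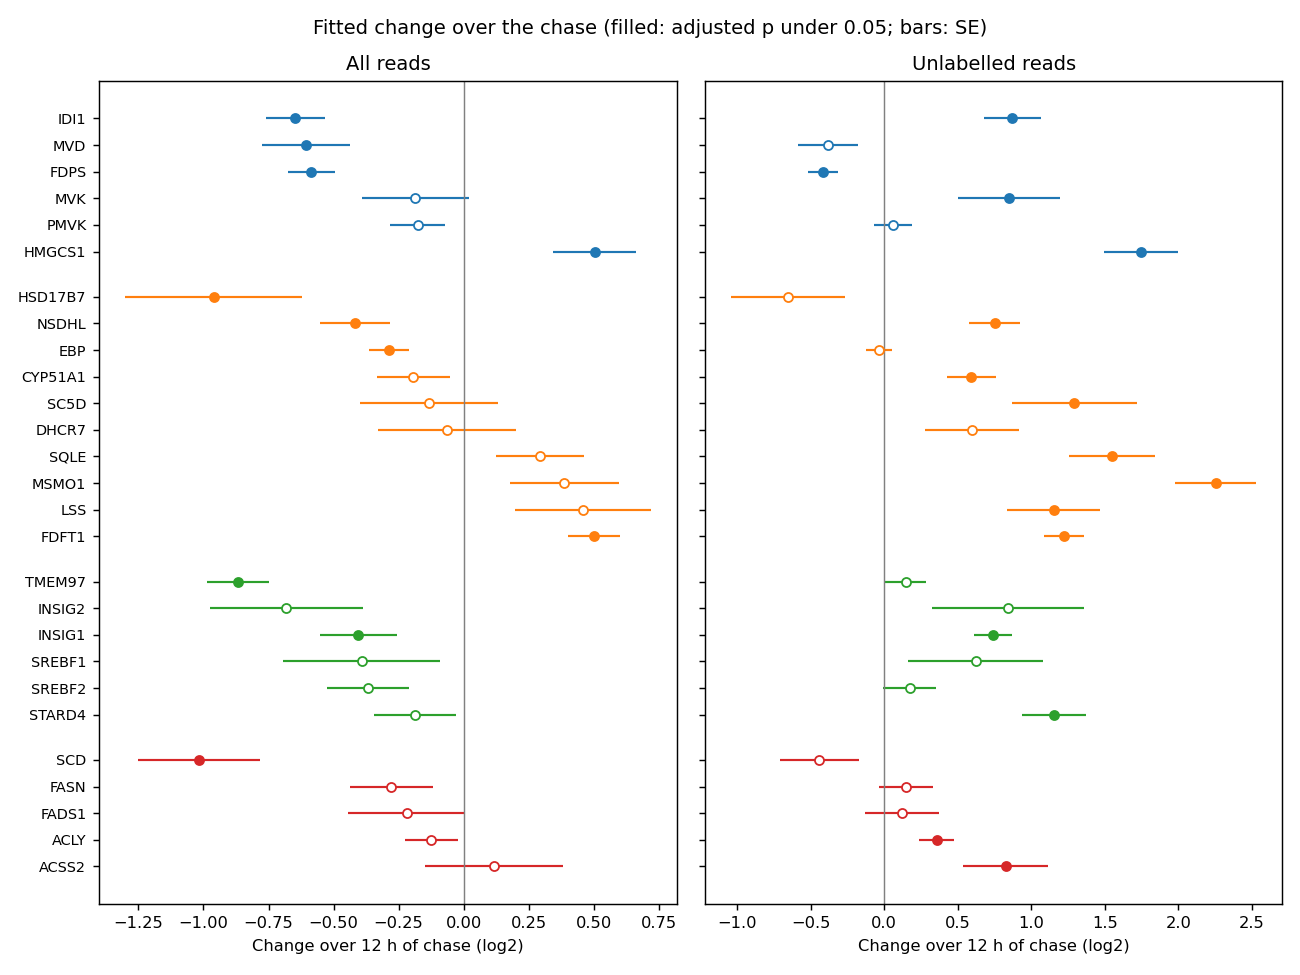
Fitted log2 change over 12 h of all reads (left) and of unlabelled reads (right) for 27 genes coloured by role, with SE bars and filled points where the adjusted p is under 0.05. All reads range from -1.02 (SCD) to 0.50 (HMGCS1), and unlabelled reads from -0.65 (HSD17B7) to 2.25 (MSMO1).

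The time courses were not straight lines in several genes. Set side by side after the values were seen, and with no test, no gene of the 27 was over 1.5-fold higher at 8 h than at 2 h (14.4% of all genes were), and 4 were over 1.5-fold lower (9.6% of all genes): HSD17B7 (ratio 0.456), SCD (0.477), TMEM97 (0.648) and FADS1 (0.649). At 12 h against 8 h, 3 were higher (3.54% of all genes): FADS1 (1.78), MSMO1 (1.55) and DHCR7 (1.5). A further 2 were lower (5.2%), INSIG2 (0.458) and SC5D (0.586). FASN had 148, 152, 134, 136, 122, 94.6 and 133 CPM in time order, so that its 8 h library was the lowest and its 12 h library lay among the early ones.

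The count of falls depended on the 12 h library. Without the 12 h library 14 of 27 genes fell and 1 rose, against 20.2% and 23.9% of all genes. Without the 0 h library 6 fell, against 22.0%. No condition has a second library, so a change of the cells at 8 or 12 h and a feature of that library cannot be told apart.

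**Figure D4:**
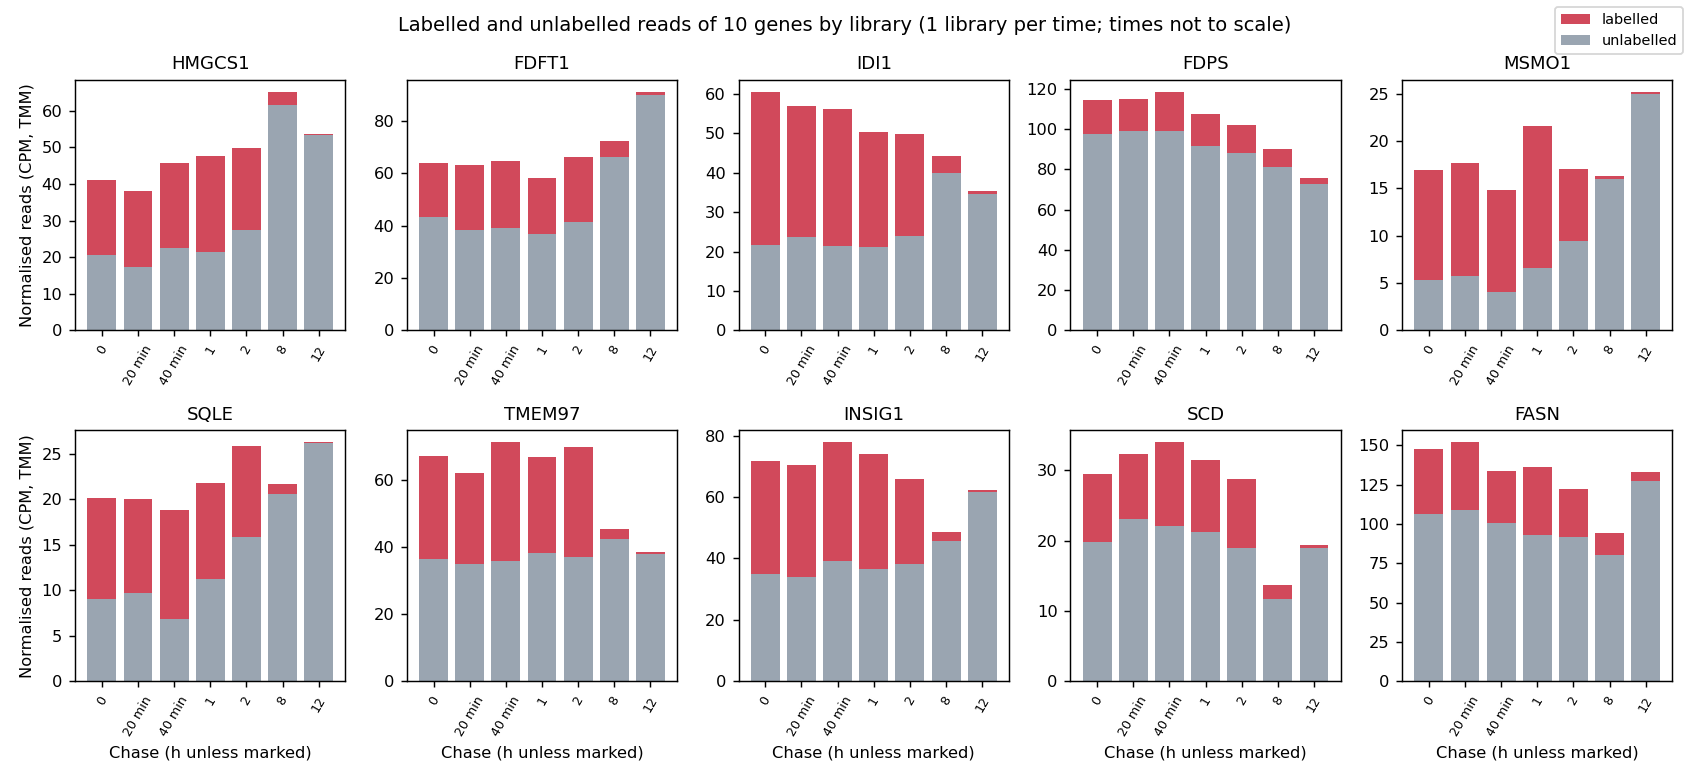
Labelled (red) and unlabelled (grey) reads of 10 genes in each chase library, stacked, as TMM-scaled CPM (y axis from 0), with times in order and not to scale. Unlabelled reads of MSMO1 are 5.33 CPM at 0 h and 25 CPM at 12 h, while those of FDPS are 97.7 CPM at 0 h and 72.8 CPM at 12 h.

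Unlabelled reads hold RNA made without 4sU, or read without enough conversions. They rose in 14 of 27 genes, against 69.2% of 9412 genes tested, and fell in 1, FDPS (against 7.18%). The median change was 0.62, against 0.98 over all genes. The rises were in HMGCS1, MVK and IDI1 of the mevalonate genes, in FDFT1, SQLE, LSS, CYP51A1, MSMO1, NSDHL and SC5D of the squalene-to-cholesterol genes, in INSIG1 and STARD4, and in ACLY and ACSS2. Leaving out the 12 h library ended the calls of ACLY (then -0.0082), ACSS2 (1.00), LSS (1.19) and CYP51A1 (0.42). Leaving out the 8 h library ended that of SC5D (0.79), and leaving out any 1 library but the 12 h one ended that of MVK (0.58 to 0.91). The call of ACSS2 also ended without the 20 min (0.79) or 40 min library (0.77). Without the 12 h library 11 genes rose, against 64.3% of all genes, and 5 fell (FDPS, HSD17B7, SCD, FASN and FADS1), against 8.42%.

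MSMO1 rose most: 5.33, 5.73, 4.10, 6.60, 9.44, 16 and 25 unlabelled CPM in time order (2.25 ± 0.28, adjusted p = 8.31e-05 by edgeR). HMGCS1 had 20.7, 17.4, 22.7, 21.5, 27.5, 61.6 and 53.5 unlabelled CPM in time order (1.74 ± 0.25, adjusted p = 0.0002). SQLE had 9.0, 9.70, 6.80, 11.3, 15.8, 20.5 and 26.1 unlabelled CPM in time order (1.55 ± 0.29, adjusted p = 0.000984). In all 3 the 2, 8 and 12 h libraries lay above every library from 0 to 1 h.

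IDI1 had 21.7, 23.7, 21.5, 21.3, 24, 40.0 and 34.6 unlabelled CPM in time order (0.87 ± 0.19, adjusted p = 0.00238 by edgeR), while its total level fell. FDPS had 97.7, 99.1, 99.1, 91.6, 88.3, 81.0 and 72.8 unlabelled CPM in time order (-0.42 ± 0.10, adjusted p = 0.00432). The unlabelled reads of SCD had 19.8 CPM at 0 h, 11.6 at 8 h and 18.9 at 12 h (-0.44 ± 0.27, adjusted p = 0.158). Labelled reads relative to the whole library fell in 27 of 27 genes, as in 98.5% of all genes, by between 1.97 (PMVK) and 7.05 (MSMO1) on the log2 scale.

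At 0 h of chase, against cells without 4sU, the levels were compared as ratios of CPM between 1 library and 1 library, with intervals for counting error only. Of 28 genes compared, 3 were more than 2-fold higher at 0 h (19.7% of 9984 genes were) and 7 were more than 2-fold lower (17.9%). Genes entered with a mean of at least 20 unscaled reads over both libraries, of which that without 4sU was the smaller. The 3 higher genes, INSIG2, HSD17B7 and ACSS2, entered through 80, 67 and 59 reads at 0 h, with 10, 10 and 6 without 4sU. Their place above 2-fold is therefore tied to the filter. The median log2 ratio was -0.23, against -0.01 over all genes. Among the regulators SREBF2 had 29.4 CPM at 0 h and 114 CPM without 4sU, 3.87-fold lower at 0 h. INSIG2 had 9.18 CPM at 0 h and 3.43 CPM without 4sU, a ratio of 2.68 (1.38 to 5.80) that rests on 10 reads without 4sU.

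Of the fatty acid genes of the set 4 of 6 were more than 2-fold lower at 0 h, against 17.9% of the 9984 genes. The 16 other fatty acid genes compared did not share this: 3 were more than 2-fold lower and 2 higher, with a median log2 ratio of 0.53. FADS2, among the 4 lower genes of the set, entered the comparison through its 58 reads without 4sU, with 18 reads at 0 h. FASN had 143 CPM at 0 h and 308 CPM without 4sU. SCD had 28.6 CPM at 0 h and 87.1 CPM without 4sU, and FADS1 38.3 CPM at 0 h and 102 CPM without 4sU. FADS2 differed most, with 2.07 CPM at 0 h and 19.9 CPM without 4sU (ratio 0.104, 0.0576 to 0.179). ACSS2 was higher at 0 h, with 6.77 CPM against 2.06 CPM without 4sU from 6 reads. On the cholesterol side FDFT1 (61.9 CPM at 0 h, 152 CPM without 4sU) and SQLE (19.5 CPM at 0 h, 55.6 CPM without 4sU) were lower, HSD17B7 (7.69 CPM at 0 h, 3.43 CPM from 10 reads without 4sU) was higher, and no mevalonate gene passed 2-fold. The monocytic markers also differed between these libraries and were higher at 0 h. They summed to 3190 CPM at 0 h and 947 CPM without 4sU, with TYROBP at 482 CPM at 0 h and 32.9 CPM without 4sU. Their part in the result was not tested.

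**Figure D5:**
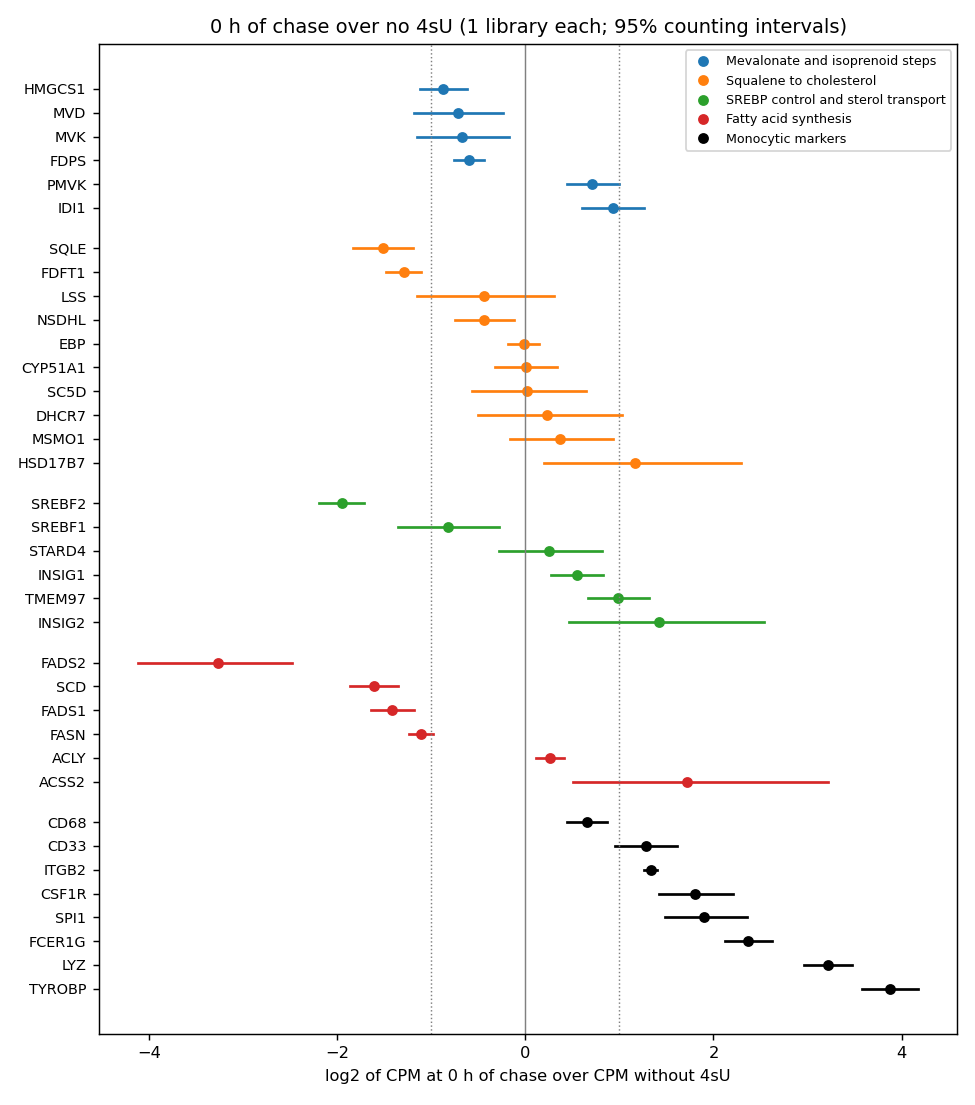
Log2 ratio of CPM at 0 h of chase over CPM without 4sU (x axis) with 95% counting intervals, for 28 genes coloured by role and for 8 monocytic markers (black), with dotted lines at 2-fold. FADS2 lies lowest at -3.27 and TYROBP highest at 3.87.

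Of 44 other genes of these pathways (such as SCAP and ABCA1), 43 were measured and 41 tested. The label declined in 36 (87.8%, against 95.3% of all genes), and the median half-life of the 36 resolved was 2.76 h. Total levels rose in 18 (43.9%, against 27.6% of all genes) and fell in 6 (14.6%, against 23.7%). Unlabelled reads rose in 30 (73.2%, against 69.2%) and fell in 2 (4.88%, against 7.18%). The 9 genes of SREBP control (such as SCAP and the protease gene MBTPS1) had 5 rises in total level (against 27.6% of all genes) and 9 of 9 rises in unlabelled reads (against 69.2%). ABCA1, the cholesterol exporter, had 1.86 ± 0.318 h, and its total level rose by 1.56 ± 0.25 (adjusted p = 0.000324), a call lost without the 12 h library (0.76).

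On hg19 the measured segments began at position 43289498 of chromosome 5 for HMGCS1 (minus strand), 155290402 of chromosome 1 for FDPS (plus), 166263100 of chromosome 4 for MSMO1 (plus) and 154897211 of chromosome 1 for PMVK (minus). They began at 17715388 of chromosome 17 for SREBF1 (minus), 42301666 of chromosome 22 for SREBF2 (plus), 80036215 of chromosome 17 for FASN (minus) and 102120692 of chromosome 10 for SCD (plus). The deposited counts name all of them as 3′ UTR segments.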

How the data were processed

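RNA from THP-1 cells was measured as QuantSeq 3′ FWD libraries, 1 per condition and 8 in all. The authors deposited raw counts, unnormalised, of all reads and of converted (nascent, here labelled) reads per 3′ UTR segment, per the file headers. The submitters' processing notes list the builds dm3 and hg19, Trim Galore 0.6.5 and bcl2fastq 2.17.1.14. Not given in the sources used here are the aligner, the counter, its strand setting and how many conversions make a read labelled, so the level of the shares rests on an unknown threshold. S2 spike-in RNA (5%) was not used. No molecular identifiers are stated. Intervals of shares and of ratios cover counting error only. The SE and interval of a half-life were widened where the libraries scattered about the fitted curve by more than counting error. The SE of a log2 change over the chase also holds the scatter of the libraries about the line.

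GENCODE 29 named 48045 of 56570 transcripts (84.9%), and 5.65% of counts were unnamed. The most covered segment stood for its gene. Left out were 3056 segments on alternative or unplaced contigs and 85 genes whose counts, above 50 reads, equalled another gene's.

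Counts of 7 chase libraries were fitted against hours in edgeR 4.0.16 (R 4.3.3; quasi-likelihood, 5 residual degrees of freedom, Benjamini-Hochberg over all genes, adjusted p under 0.05). Label decline had the gene's total as offset (mean count at least 50, at least 20 labelled reads). Total levels (mean count at least 20), unlabelled and labelled levels used TMM. Half-lives came from a binomial fit of background (shrunk with 100 prior reads) plus an exponential. A half-life was resolved with a called decline, 10 or more labelled reads over background fitted for the 0 h library, a log rate with an SE of at most 0.5 and a value of 0.25 to 24 h. Ratios of 0 h over no 4sU used library totals (mean count at least 20). Shares have 95% exact binomial intervals, and a count of 0 allows 3 counts. Scripts were tested on simulated data. DESeq2 1.42.0 was an alternative.

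Members and lists were chosen with earlier results of these data known. Values in every library are given for SREBF1, SREBF2, INSIG1, INSIG2, HMGCS1, SQLE, FASN, SCD, the 4 shortest and 4 longest half-lives and the 6 largest called changes of total level, and for FDFT1 because it rose. Some genes of the wider pathway lists are not reported by name here.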

Additional observations from a re-analysis of the deposited data

How the results depend on the processing

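No paired analysis was possible because each condition has 1 library and the labels carry no replicate numbers. Leaving out each chase library gave 26 to 27 declines of label, 26 to 27 falls of labelled level, 6 to 14 falls and 1 to 2 rises of total level, 11 to 13 rises and 1 to 5 falls of unlabelled level, 24 to 27 resolved half-lives and medians of 2.74 to 3.39 h. The 14 and 5 falls came without the 12 h library, and the 6 falls without the 0 h library. Without the 8 h library, and over 0 to 2 h, 26 genes were tested for label, labelled level and unlabelled level. ACSS2 was then not tested, so without the 8 h library 26 of 26 declined in label. Over 0 to 2 h alone, in edgeR, the label declined in 3 genes (32.3% of all genes), labelled level fell in 1 (IDI1; 13.9%), total level rose in 0 (4.03%) and fell in 1 (FASN; 1.22%), unlabelled level rose in 2 (SQLE and LSS; 22.8%) and fell in 0 (1.86%), and 2 half-lives were resolved (39.7%) with a median of 7.27 h. At an unadjusted p under 0.05 that window held 3 rises and 4 falls of total level and 5 rises and 1 fall of unlabelled level. It also held 5 declines of label and 3 falls of labelled level, and DESeq2 was not run on it. From 1 h on the median half-life was 2.57 h. Library totals gave 4 rises and 5 falls of total level. On the given strand CCAAT was in 10 and Sp1 in 16 promoters. DESeq2, its size factors, summed segments, log2(hours + 1) and no filter on low counts kept these counts within 1.5 times, though log2(hours + 1) lost the decline of PMVK, FDPS and HSD17B7.

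Some fits over 0 to 2 h alone, scaled to 12 h, turned sign without passing the test. For label decline these were PMVK 0.58, MVD 3.03, FDFT1 0.48, CYP51A1 0.44, EBP 0.037, DHCR7 2.61, TMEM97 0.18, ACLY 0.12 and SCD 0.74. For labelled level they were HMGCS1 0.90, PMVK 0.57, MVD 2.74, FDFT1 0.67, LSS 1.07, CYP51A1 1.40, DHCR7 1.10, TMEM97 0.69 and SCD 0.074. For total level it was TMEM97 at 0.51, and for unlabelled level MVK at -0.85, FDFT1 at -0.12 and ACLY at -0.98. Over the fits that left out 1 library the unlabelled change ran between -0.0082 (without 12 h) and 0.45 for ACLY, -0.57 (without 12 h, adjusted p = 0.00945 by edgeR) and 0.33 for FASN, and -0.93 (without 12 h, adjusted p = 0.00331) and 0.39 for FADS1. The cause was not tested. With few reads, HSD17B7, MVD and DHCR7 had the widest errors of half-life relative to its value.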
